A study of Homo sapiens with 4 samples.

Results

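CDK inhibitors hold the cell cycle back, and 7 genes that encode them, together with their neighbour MTAP, are described here in 2 established human leukemia cell lines. The 8 genes were chosen by symbol (CDKN1A, CDKN1B, CDKN1C, CDKN2A, CDKN2B, CDKN2C, CDKN2D and MTAP), out of 20163 protein-coding genes of the annotation, and every row carrying one of these symbols was taken from 4 lists of chromatin peaks. The lists came from chromatin immunoprecipitation followed by sequencing (ChIP-seq) with antibodies to WDR5 (ab56919) and to H3K4me3 (ab8580), each in both lines, RS4;11 and THP-1, with 1 library per combination and no replicate, so that no difference between the lines could be tested. RS4;11 is a lymphoblastic leukemia line and THP-1 a monocytic leukemia line, both with a rearranged MLL gene, and both were grown without treatment in RPMI1640 with 10% FBS.

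The INK4 proteins, encoded by CDKN2A (p16), CDKN2B (p15), CDKN2C (p18) and CDKN2D (p19), bind CDK4 and CDK6 and keep them from pairing with D-type cyclins. The CIP/KIP proteins, encoded by CDKN1A (p21), CDKN1B (p27) and CDKN1C (p57), bind complexes of cyclins and CDKs. CDKN2A also encodes, from a start of its own, the ARF protein, which restrains MDM2, while MTAP, next to CDKN2A, encodes the methylthioadenosine phosphorylase of methionine salvage. H3K4me3, trimethylated lysine 4 of histone H3, marks the starts of active and poised genes, and WDR5 is a subunit of the MLL-type complexes that write it.

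Each peak is an interval in hg19, with its width but with neither a height nor a p-value, and a peak was called a start-site peak where it covered the first base of an annotated transcript of the gene. The H3K4me3 lists held 24212 peaks in RS4;11 and 26523 in THP-1, and the WDR5 lists 703 and 225. Sequencing depth is unknown, so a gene with no peak is given as not listed. Genes usually carrying the mark could also be absent from the lists. Of 8 generally expressed genes, which were picked after the lists were seen and so give no rate, RPL13A, HPRT1 and PGK1 had an H3K4me3 start-site peak in each line (though none within 11.5 kb of the canonical start of PGK1), whereas ACTB, GAPDH, EEF1A1, TBP and POLR2A had none in either, and no H3K4me3 peak was wider than 4478 bp in RS4;11 or 4446 bp in THP-1.

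The lineage markers were checked against the labels. Labels of cell type contradict each other, calling THP-1 lymphoblastic in the WDR5 library and RS4;11 myeloid in the H3K4me3 library, and the label of the cell line was used. Of 4 B-lineage markers read, 1 had a start-site peak in RS4;11 and 2 in THP-1. At the canonical start, the first base of the transcript that Ensembl names as representative, CD79A had a peak in RS4;11 alone, but PAX5 and EBF1, which also specify B cells, had one in THP-1 alone, and VPREB1 had none. Of 5 monocytic markers 4 had a start-site peak in each line, MPO being the exception in both. At the canonical start 3 had a peak in each line, with CSF1R in THP-1 alone and CEBPE, a myeloid factor, in RS4;11 alone. In RS4;11 and THP-1 the start-site peaks were 645 and 2709 bp wide for LYZ, 1004 and 1335 bp for CD14, 3713 and 2418 bp for CSF1R, and 3125 and 729 bp for CEBPE. CD79A and CSF1R thus go with the line names and PAX5, EBF1 and CEBPE against them at the canonical start. Among these markers EBF1 alone was named in a WDR5 list, through an intron peak in THP-1. Whether the H3K4me3 and WDR5 libraries hold the cells their labels state was not tested. Leaving out a library was not possible with 1 per line, so each value below is that of the library labelled RS4;11 or THP-1.

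Promoter sequences of 4 members are shown because the comparison of the lists turns on them: those of CDKN1A and CDKN2D lay wholly inside a THP-1 peak, and those of CDKN2A and CDKN2B in no peak of either line. Each is the 250 bases before a RefSeq start (GRCh38.p14), found without a mismatch at 1 place in GRCh37, whose chromosomes are those of hg19. Capitals mark GC boxes, GGGCGG on either strand (CCGCCC when read on the strand shown), overlapping ones included. The CDKN1A window lies on the plus strand at chr6:36646241-36646490, CDKN2D on the minus strand at chr19:10679656-10679905, CDKN2A before the p16 start on the minus strand at chr9:21974857-21975106, and CDKN2B on the minus strand at chr9:22009305-22009554.
CDKN1A: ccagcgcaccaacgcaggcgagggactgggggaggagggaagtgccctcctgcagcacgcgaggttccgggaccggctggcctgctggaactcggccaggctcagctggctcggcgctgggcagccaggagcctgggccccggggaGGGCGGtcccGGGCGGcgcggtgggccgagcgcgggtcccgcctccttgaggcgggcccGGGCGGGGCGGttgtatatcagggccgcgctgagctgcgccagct
CDKN2D: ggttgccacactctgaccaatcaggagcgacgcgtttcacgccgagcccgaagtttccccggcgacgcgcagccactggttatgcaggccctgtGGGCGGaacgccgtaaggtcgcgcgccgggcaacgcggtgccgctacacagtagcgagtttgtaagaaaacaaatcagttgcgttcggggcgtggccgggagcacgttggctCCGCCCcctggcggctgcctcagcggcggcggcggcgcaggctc
CDKN2A: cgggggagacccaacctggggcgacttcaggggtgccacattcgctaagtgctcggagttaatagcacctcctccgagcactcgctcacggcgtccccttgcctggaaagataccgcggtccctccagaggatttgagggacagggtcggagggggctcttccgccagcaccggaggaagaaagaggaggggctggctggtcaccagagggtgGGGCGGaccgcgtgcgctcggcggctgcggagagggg
CDKN2B: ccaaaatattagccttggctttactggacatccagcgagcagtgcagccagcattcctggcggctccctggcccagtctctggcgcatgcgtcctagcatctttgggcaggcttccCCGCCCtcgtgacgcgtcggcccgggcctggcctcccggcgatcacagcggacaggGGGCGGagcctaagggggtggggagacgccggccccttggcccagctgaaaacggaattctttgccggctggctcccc

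All 4 windows held more CpG than the median promoter. CDKN1A held 4 GC boxes and 27 CpG, CDKN2D 2 and 33, CDKN2B 2 and 18, and the p16 window of CDKN2A 1 and 20. Over 21579 promoter windows of the same length, 54.3% held at least 1 GC box and the median window had 1 box and 17 CpG. So the windows of CDKN2A and CDKN2B, in no peak, had at least the median number of both, as did those of CDKN1A and CDKN2D. RefSeq windows were matched for 7 of the 8 members, 10 windows in all, and CDKN1C had no entry. The second CDKN2A window, before the ARF start, held 0 boxes and 24 CpG. Outside the 4 shown, the CDKN2C start at position 51434378 of chromosome 1 had 5 GC boxes and 35 CpG, the most of the 10, and lay in no peak. The CDKN2C window that RS4;11 marked, before position 51426417, had 0 boxes and 7 CpG. The remaining windows lay in no peak, CDKN1B with 1 box and 27 CpG, MTAP with 2 and 11, and the canonical CDKN2C start with 1 and 10. MTAP and the canonical CDKN2C start were thus below the median of 17 CpG.

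No member was listed with WDR5 in either line. The WDR5 lists named 0 of the 8 genes in RS4;11 and 0 in THP-1, against 3.56% and 1.24% of all protein-coding genes. The WDR5 peak nearest to a canonical start was 220 kb away, for CDKN2C in THP-1, followed by 299 kb for CDKN2D and 730 kb for CDKN1C, both in RS4;11. For every other pair of gene and line it was over 1 Mb away.

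H3K4me3 rows existed for 5 members in RS4;11 and 4 in THP-1. CDKN1A, CDKN1B, CDKN1C and CDKN2D were named in both lines and CDKN2C in RS4;11 alone, through 19 rows and 9 distinct peaks in RS4;11 and 27 rows and 12 peaks in THP-1. CDKN2A, CDKN2B and MTAP had no row in any of the 4 lists. The member peaks spanned 462 to 3102 bp in RS4;11 and 530 to 3277 bp in THP-1, and 4 peaks of each line overlapped a peak of the other, which is 44.4% of the RS4;11 and 33.3% of the THP-1 member peaks. Over all H3K4me3 peaks the share was 55.8% and 51.8%.

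**Figure D1:**
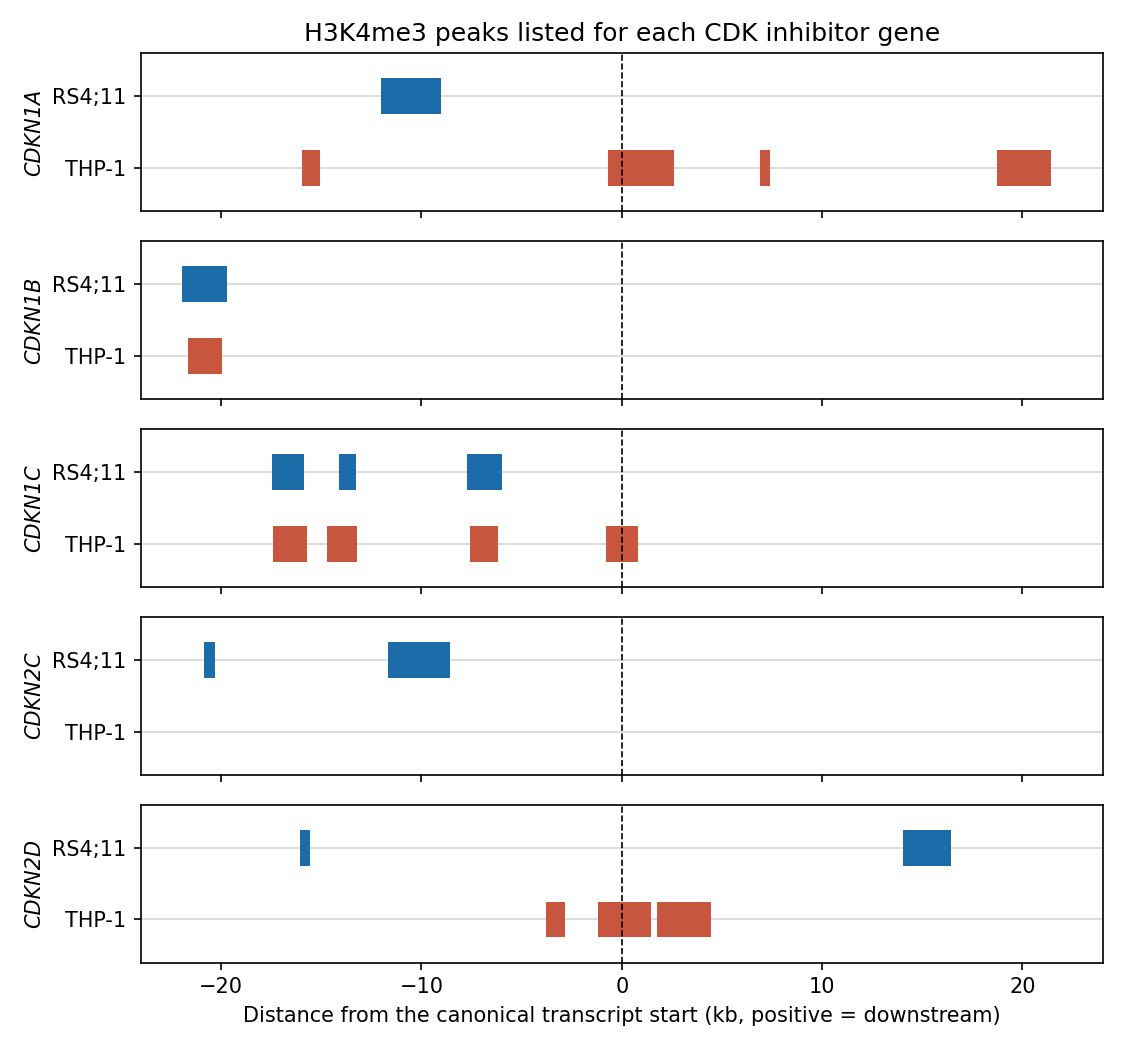
H3K4me3 peaks listed for the 5 members with any row, drawn to scale as bars against distance in kb from the canonical start (dashed line, negative is upstream), with RS4;11 in blue above THP-1 in red. THP-1 peaks lie over the canonical start of CDKN1A, CDKN1C and CDKN2D, and no RS4;11 peak reaches a canonical start.

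A row in the list does not place the mark at the start of the gene, since the authors assigned a peak to every transcript within 20 kb. Counting peaks over any annotated start, RS4;11 had 2 of 8 members (CDKN1B and CDKN2C), against 53.4% of all protein-coding genes. THP-1 had 4 of 8 (CDKN1A, CDKN1B, CDKN1C and CDKN2D), against 59.1%. CDKN2C was the 1 member with such a peak in RS4;11 only, where 6.35% of genes fell, and CDKN1A, CDKN1C and CDKN2D were the 3 in THP-1 only, where 12.1% fell.

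At the canonical start, a definition chosen after seeing the data, fewer members differed between the lines, since CDKN2C had no peak there in either. RS4;11 had 0 members, against 49.6% of 19881 genes with such a start, and THP-1 had 3, CDKN1A, CDKN1C and CDKN2D, against 53.3%. These 3 were in THP-1 only, a class with 11.3% of all genes, and the class of RS4;11 only, with 7.59% of genes, had 0 members. The authors' own flags, read as a peak both upstream of a transcript and in its exon or intron, gave the same 3 genes in THP-1 and 0 in RS4;11. With 8 genes and 1 library per line these counts are a description.

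Among the CIP/KIP genes, CDKN1A had the widest member peak. In THP-1 a peak of 3277 bp at chr6:36645817-36649093 ran from 674 bp upstream to 2602 bp downstream of the canonical start (36646491, plus strand), over 5 annotated CDKN1A starts, and was flagged by the authors in an exon and an intron of the gene. It also covered a start of DINOL, a noncoding RNA gene. The 3 further THP-1 peaks were 907 bp wide at 15.1 kb upstream, 530 bp wide inside the gene at 6.88 kb downstream, and 2697 bp wide beyond the gene, over the start of RAB44. RS4;11 had 1 peak for CDKN1A, 2984 bp wide at chr6:36634470-36637453, whose nearer edge lay 9.04 kb upstream of the start. It covered no annotated start of any gene, and no CDKN1A peak of one line overlapped any peak of the other.

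CDKN1B was marked alike in both lines, but far from its canonical start. The RS4;11 peak at chr12:12848349-12850604 was 2256 bp wide and the THP-1 peak at chr12:12848622-12850334 was 1713 bp wide and lay wholly inside it. Both covered 3 starts of CDKN1B transcripts that begin upstream, and both covered a start of GPR19, an orphan receptor gene, so the 2 genes cannot be told apart there. The canonical start (12870302, plus strand) lay 19698 bp from the RS4;11 peak and 19968 bp from the THP-1 peak, and no peak in either line covered it.

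CDKN1C, an imprinted gene on chromosome 11, differed between the lines at its start and not upstream of it. In THP-1 a peak of 1610 bp at chr11:2906175-2907784 ran from 779 bp upstream to 830 bp downstream of the canonical start (2907005, minus strand) and covered 5 annotated starts. RS4;11 had no peak there, the nearest edge being 5.99 kb upstream. The 3 upstream peaks were in both lines, with 1748, 822 and 1585 bp in RS4;11 against 1393, 1489 and 1699 bp in THP-1, and they overlapped by 1393, 822 and 1583 bp. Of these the 2 farther ones cover starts of SLC22A18, an organic cation transporter gene.

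The INK4 genes CDKN2C and CDKN2D were listed in opposite lines at a start. For CDKN2C, RS4;11 had a peak of 3102 bp at chr1:51424255-51427356, over the most upstream annotated start (51426417, plus strand), and a second of 563 bp further upstream. The wider peak also covered a start of FAF1, a divergent neighbour that encodes a Fas-associated factor, and ended 8.56 kb short of the canonical CDKN2C start at 51435917. In THP-1 CDKN2C had no row, and the nearest H3K4me3 peak lay 96.0 kb from the canonical start. So the promoter next to FAF1, not the canonical start, carried the RS4;11 call.

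For CDKN2D, THP-1 had a peak of 2678 bp at chr19:10678185-10680862, from 1207 bp upstream to 1470 bp downstream of the canonical start (10679655, minus strand), over both annotated starts. Only 298 bp separated it from a peak of 2690 bp that reached the last exon of CDKN2D and a start of KRI1, and a peak of 964 bp lay 2.84 kb upstream. RS4;11 had 2 peaks, 2396 bp wide at 14.0 kb downstream and 462 bp wide at 15.6 kb upstream. Neither overlapped a THP-1 peak or covered a start of a protein-coding gene.

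Start-site peaks of the members were of ordinary width. In RS4;11 the CDKN1B and CDKN2C peaks stood at percentiles 41.0 and 76.0 of all 10379 start-site peaks, whose median was 2454 bp (interquartile range 1850 to 3071 bp). In THP-1 CDKN1A stood at percentile 85.8, CDKN2D at 68.7, CDKN1B at 29.4 and CDKN1C at 26.2 of 11719 peaks with a median of 2232 bp (1576 to 2865 bp). The members' median was 2679 bp in RS4;11 (2 peaks) and 2195.5 bp in THP-1 (4 peaks), both inside those interquartile ranges.

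The remaining members, CDKN2A, CDKN2B and MTAP, lie side by side on chromosome 9, and all 3 were without a row in both lines. The question here was whether the peaks of the locus are lost in 1 line. None was listed in either, but the stretch without H3K4me3 peaks was 6 times as long in RS4;11. In RS4;11 it ran over chr9:19630956-26890158, 7.26 Mb, with 2.34 Mb on the left of CDKN2A and 4.89 Mb on the right. In THP-1 it ran over chr9:21236513-22446019, 1.21 Mb, with 0.731 Mb and 0.451 Mb, and lay wholly inside the RS4;11 stretch. Its length depended on single peaks: on the right it ended at a THP-1 peak of 2325 bp, beyond which 1.22 Mb again held no THP-1 peak. The nearest H3K4me3 peak to the canonical start was 2340 kb away in RS4;11 and 471 kb in THP-1 for CDKN2A, 2380 and 437 kb for CDKN2B, and 2170 and 566 kb for MTAP.

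**Figure D2:**
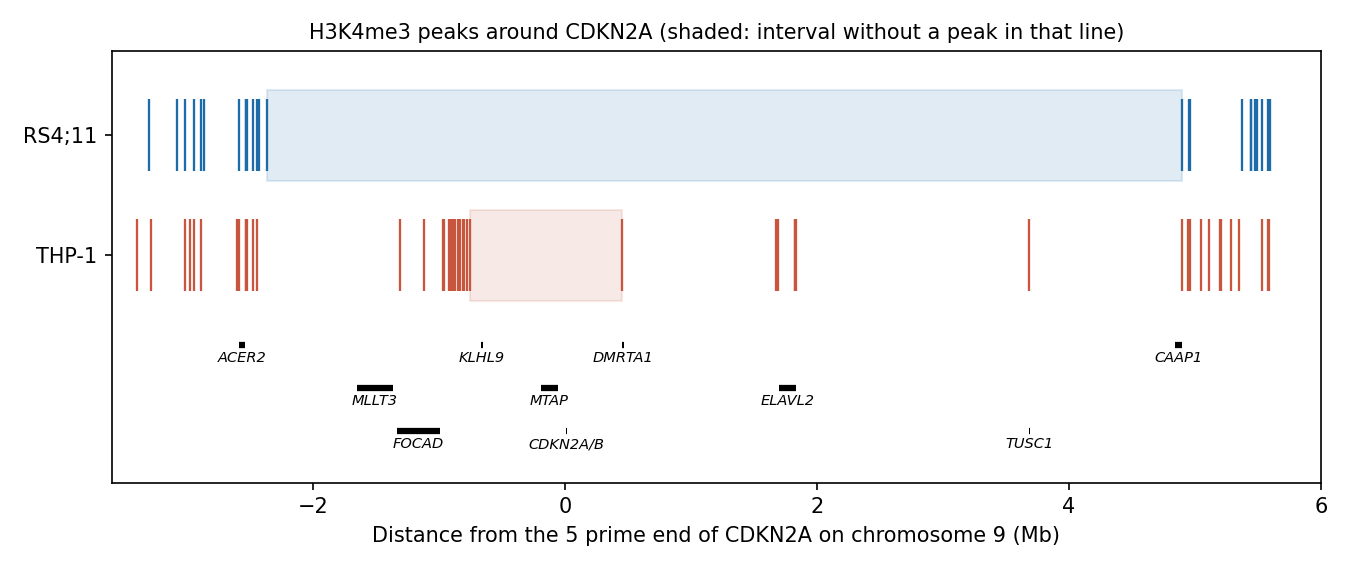
H3K4me3 peaks on chromosome 9 (vertical ticks, RS4;11 above in blue, THP-1 below in red) against distance in Mb from the 5′ end of CDKN2A, with the peak-free interval of each line shaded and selected genes drawn as black bars. The RS4;11 interval is 7.26 Mb and the THP-1 interval 1.21 Mb, and 23 THP-1 peaks lie inside the former.

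For scale, the median distance between neighbouring listed H3K4me3 peaks was 30.8 kb in RS4;11 and 31.3 kb in THP-1. Only peaks within 20 kb of a transcript are listed, so ground farther from transcripts can add to the length of an interval. The RS4;11 stretch was the second longest of 23994 intervals that hold no assembly gap, and the longest of those on chromosome 9. In THP-1 298 of 26300 intervals were longer than the one around CDKN2A, and 1.14% were at least as long. Long stretches were not in themselves particular to RS4;11: a neighbouring interval on chromosome 9 was 4.79 Mb in RS4;11 and 4.8 Mb in THP-1.

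The RS4;11 stretch differed from other long ones in what THP-1 held there. It contained 23 THP-1 peaks in 7.26 Mb, more than any other RS4;11 interval. The next ones held 13, in 3.11 Mb on chromosome 12 and in 0.389 Mb on chromosome 16. Per Mb both held more THP-1 peaks than the stretch around CDKN2A, so its high count goes with its length. In the other direction, the THP-1 interval around CDKN2A held 0 RS4;11 peaks, but an interval elsewhere in THP-1, on chromosome 7, held 26 RS4;11 peaks in 1.1 Mb, and one on chromosome 2 held 25 in 2.35 Mb. The RS4;11 stretch was not evenly filled in THP-1. To the right of the THP-1 interval around CDKN2A lay further THP-1 intervals without a peak, of 1.22, 1.85 and 1.21 Mb. Another, of 1.13 Mb, overlapped the left end of the RS4;11 stretch. Stretches free of peaks in one line that held many peaks of the other were thus seen in both directions in the genome.

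**Figure D3:**
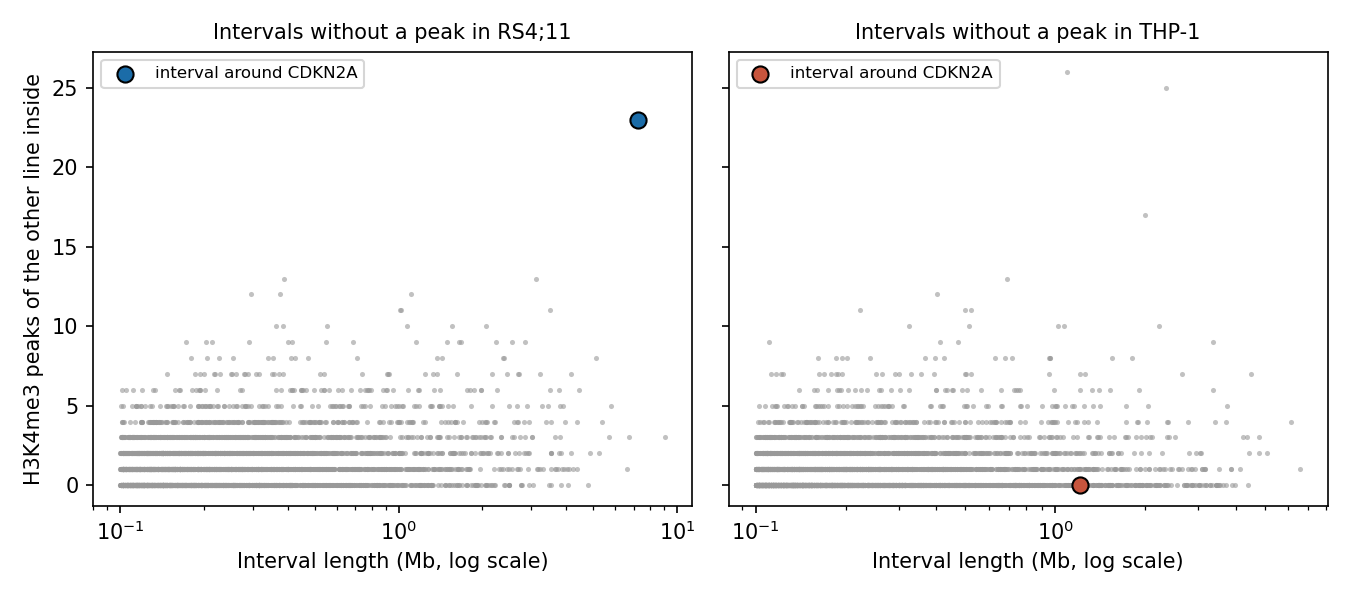
Length in Mb (log scale) of intervals between neighbouring H3K4me3 peaks, for those of 0.1 Mb or more without an assembly gap, against the number of peaks of the other line inside, for RS4;11 (left) and THP-1 (right). The CDKN2A interval (large point) has 23 other-line peaks at 7.26 Mb in RS4;11 and 0 at 1.21 Mb in THP-1.

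Of the 23 THP-1 peaks, 16 lay to the left of the THP-1 stretch and 7 to its right, with widths of 479 to 3481 bp and a median of 790 bp. On the left, 2 start-site peaks marked FOCAD, which encodes focadhesin, with the wider at 2848 bp, and 1 of 1885 bp marked HACD4, a fatty acid elongation enzyme gene. On the right, peaks of 2325 bp marked DMRTA1, 479 bp ELAVL2, an RNA-binding protein gene, and 3481 bp TUSC1. These 5 genes had no start-site peak in RS4;11, and CAAP1, at the right edge, had one in both lines, of 3561 bp in RS4;11 and 3564 bp in THP-1. Beyond the left edge, ACER2, an alkaline ceramidase gene, was also marked in both, by 2615 bp and 2411 bp.

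In all, 29 protein-coding genes overlapped the RS4;11 stretch, of which 6 had a start-site peak in THP-1 and 1, CAAP1, in RS4;11. The 16 interferon genes of the region had no start-site peak in THP-1. Their cluster was not bare in that line, however. Many of the THP-1 peaks inside the RS4;11 stretch lay beside or between the genes from IFNB1 to IFNA14, at chr9:21070050-21236512. MLLT3 and KLHL9 had no start-site peak in either line, so genes of other kinds in the stretch were also without a listed one. Neither line had a WDR5 peak inside the RS4;11 stretch. Lost DNA, a lost mark and rows missing from a list for another reason cannot be told apart here.

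The kinases, cyclins and downstream proteins that the inhibitors act on were read in the same way, a gene being called marked where it had a start-site peak, from 4 lists of 19 genes in all. Of these, 11 (57.9%) had a start-site peak in RS4;11 and 13 (68.4%) in THP-1, beside 53.4% and 59.1% of all genes. There were 8 in both, 3 in RS4;11 only, 5 in THP-1 only and 3 in neither. Over all genes the share was 6.35% in RS4;11 only and 12.1% in THP-1 only. With 19 chosen genes and 1 library per line these counts are a description. Among 5 genes for the kinases that INK4 proteins bind and the D-type cyclins of those kinases, 3 were marked in each line over any start. At the canonical start CDK4 alone was marked in both, and CCND1 in THP-1. CDK4 and CCND3 were marked in both, CCND2 in RS4;11 only (1712 bp) and CCND1 in THP-1 only (3480 bp), and CDK6 in neither. The CCND3 and CCND2 calls rest on other starts, the nearest peak to the canonical start being 44.9 kb away in RS4;11 and 18.4 kb in THP-1 for CCND3, and 3491 bp and 1295 bp for CCND2. For CCND1 the nearest RS4;11 peak lay 696 bp from the canonical start. CDK6 was the 1 partner with a WDR5 peak, in an intron in RS4;11 at chr7:92418627-92418972.

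Among 6 targets of the CIP/KIP proteins, 4 were marked in RS4;11 and 3 in THP-1. CDK2, CCNA1 and CCNA2 were marked in both, CCNE2 and CDK1 in neither, and CCNE1, a partner of CDK2 at S-phase entry, in RS4;11 only with 2866 bp. That difference is a narrow one, since the nearest THP-1 peak ended 310 bp from the CCNE1 start.

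Of 6 pocket proteins and E2F factors, on which the inhibited kinases act, 3 were marked in RS4;11 and 5 in THP-1. RB1, the retinoblastoma protein gene, had a peak of 3582 bp in THP-1, and in RS4;11 the nearest peak was 37.8 kb from its start. E2F2 (3783 bp) and E2F3 (3471 bp) were likewise marked in THP-1 only, with the nearest RS4;11 peaks 36.6 and 7.5 kb away. E2F1 was marked in RS4;11 only (2641 bp), with a THP-1 peak 392 bp from the start, and RBL1 and RBL2 were marked in both. Of the MDM genes, MDM2, whose product ARF restrains, was marked in THP-1 only (3449 bp), and its relative MDM4 in both. MDM2 and CDKN1A both had a peak over the canonical start in THP-1 and none there in RS4;11. So did CDKN1C, CDKN2D, CCND1, RB1, E2F2 and E2F3, and 11.3% of all genes fell in that class.

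**Figure D4:**
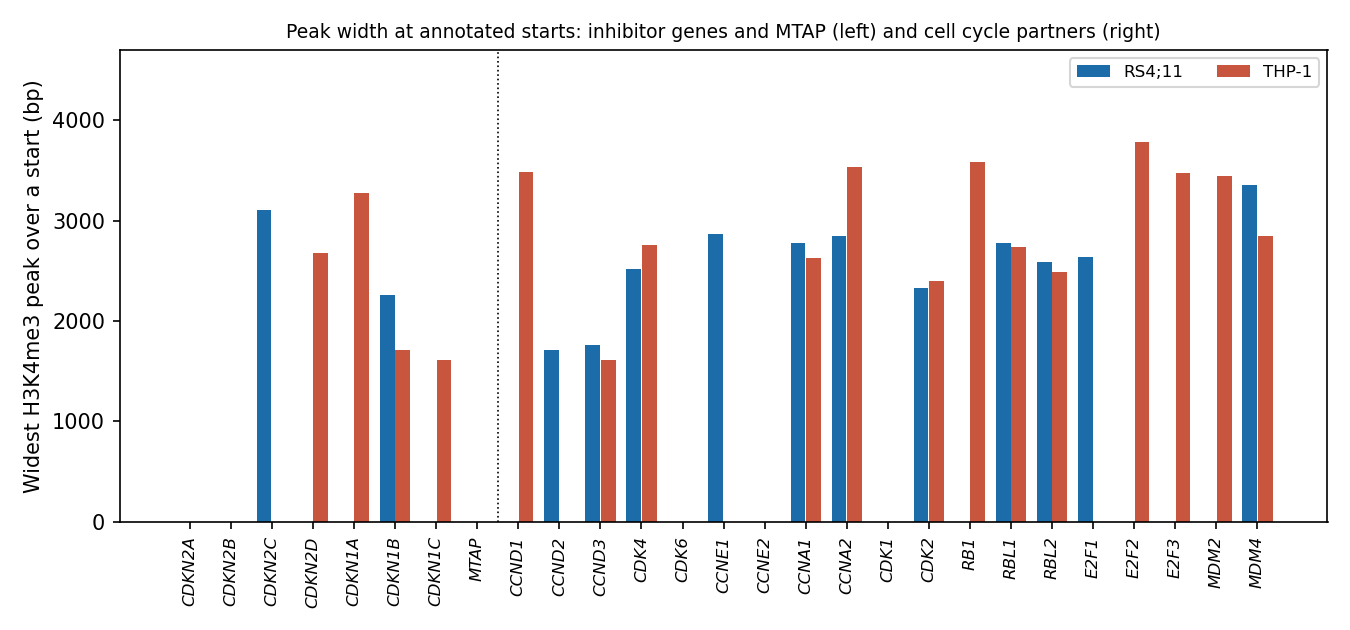
Width in bp of the widest H3K4me3 peak over an annotated start in RS4;11 (blue) and THP-1 (red), for the 8 members left of the dotted line and the 19 partner genes to its right, where no bar means that no start-site peak was listed. CDKN2A, CDKN2B and MTAP have no bar, and CDKN1A has the tallest member bar at 3277 bp.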

How the data were processed

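The authors sequenced 1 library each of WDR5 and H3K4me3 ChIP DNA from RS4;11 and THP-1 cells. Chromatin was sonicated for WDR5 and cut with micrococcal nuclease for H3K4me3, while the labels give sonication for every library. Reads were aligned to hg19 with Eland, keeping unique alignments with at most 2 mismatches, peaks were called with MACS at default settings, and a Perl script assigned each peak to RefSeq transcripts within 20 kb. The submitters' processing notes also name CASAVA 1.7 and 1.8.2. The deposited files list 1 row per peak and transcript, with position, gene symbol and 4 yes or no flags (upstream, downstream, exon, intron) from the authors, and no score, height or read count. Depth and precision of a call are therefore unknown, no stricter peak threshold could be set, and with 1 library per group no test was run. Peaks were called per library. How the peak caller was controlled is not given in the sources used here.

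Rows were taken by gene symbol, with all 8 members named whatever their values. Rows were merged to distinct peaks, and compared with transcript starts of GENCODE release 44 lifted to GRCh37 (Python 3.11.15, pandas 2.3.3, numpy 2.4.6). Peaks sharing at least 1 bp overlapped. Intervals holding a run of 1000 or more unknown bases were set aside. The code that calls a peak over a start, or within 1 kb of it, was tested on simulated data. That test did not include the code for peak-free intervals or for overlaps between the lines. The members and gene lists were chosen with earlier results of these data known, and the generally expressed genes after the peak lists were seen. Alternatives were other definitions of a start, other peak sets for width, wider WDR5 windows, and a 500 bp width filter. Of the fixed lists, 1 B-lineage marker and 1 partner gene are not reported here. Counts at the canonical start and by the authors' flags were chosen after seeing the data.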

Additional observations from a re-analysis of the deposited data

How the results depend on the processing

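Start-site counts moved with the definition of a start. From 2 members in RS4;11, the count became 1 with the 5′ end of the gene alone, 5 with any row naming the gene, and 0 with the canonical start or the authors' flags. From 4 in THP-1, it became 2 with the 5′ end. The count in RS4;11 only went from 1 to 0 with the canonical start or the flags, and that in THP-1 only from 3 to 0 with any row. The RS4;11 median width fell from 2679 to 1748 bp over all member peaks, and no canonical-start median exists there. The other 24 alternative values stayed within 1.5 times the reported ones, including 0 members with a WDR5 peak within 5 kb of a start or 50 kb of a gene, and 7.32 Mb for the RS4;11 interval with peaks of 500 bp or wider. No paired analysis was possible because each group has 1 library. Only peaks within 20 kb of a transcript are listed, and depth limits what an absence can show.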
